A study of Homo sapiens with 12 samples.

Results

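Proximal tubule identity genes are 9 genes that mark the epithelium of the first segment of the nephron: PAX8, PAX2, HNF4A, CUBN, LRP2, ANPEP, DPP4, MIOX and CDH6. They were followed in HK-2 cells, a line of human proximal tubule epithelium that was immortalised and so may hold only some traits of the tubule in the body. A probe set belonged to a gene when the platform annotation named that gene alone, and the brightest of them, by its mean on all arrays, led for the gene. By this rule 8 of the 9 genes had 26 probe sets, of 19775 genes with a probe set of their own in all. No probe set was named for HNF4A in the annotation used, and it is given no value. Of the 8 genes, 4 passed the filter on low values, a log2 value above 4 on at least 3 of the 12 arrays. These were PAX8, DPP4, MIOX and CDH6, with 18 probe sets, among 10963 tested genes.

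The 12 Affymetrix arrays form 4 groups of 3 biological replicates: cells that received Nnm, a compound known here by that code, at a dose labelled high for 24 h or 48 h, and cells that received only vehicle for the same times. All groups were kept in DMEM mixed with Ham's F12 and supplied with EGF, insulin, hydrocortisone, transferrin and selenite, and the dose and vehicle are not specified further in the sources used here. Whether the replicates came from separate cultures is not said, so p-values measure the spread between these samples. The series belongs to a search for expression patterns of compounds that harm the kidney, and the question here is how far these cells kept the genes of their cell of origin with and without Nnm. In RNA from whole cultures, fewer cells expressing a gene and less RNA per cell cannot be told apart.

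In the kidney, the proximal tubule takes back most of the filtered glucose, amino acids, phosphate and protein. PAX8 and PAX2 are paired-box transcription factors needed to form the nephron, and HNF4A is a nuclear receptor that drives the mature tubule program. CUBN (cubilin) and LRP2 (megalin) are the large endocytic receptors that retrieve filtered protein. ANPEP (aminopeptidase N) and DPP4 (dipeptidyl peptidase 4) are peptidases of the brush border, the microvilli that face the filtrate. MIOX, myo-inositol oxygenase, starts the breakdown of inositol and is an enzyme largely of the kidney tubule. CDH6 is a cadherin that joins cells in the developing nephron and stays on the proximal tubule.

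The 250 bases before the transcript start are shown for the gene that fell with Nnm (MIOX), the gene that rose at 48 h on part of its probe sets (DPP4) and a gene that stayed low on every array (CUBN). They come from RefSeq on GRCh38.p14, and capitals mark AGGTCA, or TGACCT where it lies on the opposite strand. This hexamer is the half-site bound by many nuclear receptors. MIOX is from chr22:50486609-50486858 on the plus strand, DPP4 from chr2:162074216-162074465 on the minus strand and CUBN from chr10:17129812-17130061 on the minus strand.
MIOX: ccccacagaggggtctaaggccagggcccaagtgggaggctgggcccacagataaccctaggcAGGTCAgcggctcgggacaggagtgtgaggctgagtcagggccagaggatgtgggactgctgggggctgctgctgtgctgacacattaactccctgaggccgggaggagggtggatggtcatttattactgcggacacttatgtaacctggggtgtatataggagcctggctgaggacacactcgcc
DPP4: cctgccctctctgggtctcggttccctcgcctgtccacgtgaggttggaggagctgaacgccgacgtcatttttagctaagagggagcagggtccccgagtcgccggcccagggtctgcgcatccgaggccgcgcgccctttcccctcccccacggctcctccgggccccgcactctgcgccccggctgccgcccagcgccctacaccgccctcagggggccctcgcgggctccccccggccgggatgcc
CUBN: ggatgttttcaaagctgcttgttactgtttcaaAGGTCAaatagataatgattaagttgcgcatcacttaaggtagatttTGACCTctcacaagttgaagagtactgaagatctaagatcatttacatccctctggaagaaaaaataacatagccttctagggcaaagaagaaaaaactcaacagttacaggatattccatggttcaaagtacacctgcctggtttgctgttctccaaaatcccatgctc
The MIOX window held 1 match, 187 bases before the start, and the CUBN window held 2, at 217 and 170 bases, while the DPP4 window held none. Of all 35116 windows of this length, 12.1% held the hexamer on either strand. Windows were given for 8 of the 9 genes, 11 in all with second starts, and 3 of these 11 held a match. The third was at the second start of ANPEP. The windows also differed in base composition: DPP4 held 26 CpG dinucleotides at 73.6% G and C, MIOX 5 at 60.8% and CUBN 1 at 38.0%, against medians of 11 and 58.0% over all windows. A match describes letters in the window only.

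One fact about the arrays touches every value that follows. On the first principal component over all tested probe sets, which held 57.4% of their variance, the 6 control arrays spanned -49.6 to -44.2. Replicates 1 and 3 with Nnm spanned 68.6 to 87.8. The arrays of Nnm replicate 2 were nearer to the controls, with -16.1 (24 h) and -19.8 (48 h). Its values are therefore given by name, and the counts of calls are also given without both of these arrays. What set these arrays apart was not tested.

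In control cells, 4 of the 8 measured genes were above log2 4 in both control groups, and the other 4 were under it on all 12 arrays. The 4 above were 1 of the 2 measured transcription factors (PAX8), 1 of the 2 brush border peptidases (DPP4), MIOX and CDH6. Both endocytic receptors stayed under the filter level: CUBN read between 2.08 and 2.12 over the 12 arrays, and LRP2 between 2.53 and 2.61 on its leading probe set. ANPEP read between 2.92 and 3.00. PAX2 read between 2.42 and 2.78 on its leading probe set. The deposited values carry no detection call, so these genes are said only to lie under the filter level.

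Nnm lifted none of these 4 genes past the filter level at either time. Further probe sets gave the same picture: between 2.52 and 2.69 for a second LRP2 set, and between 1.95 and 2.39 for 2 more ANPEP sets. A second PAX2 set stood at 3.29 in Nnm replicate 1 at 48 h, also under the filter level, and between 2.13 and 2.15 on the 11 other arrays.

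**Figure D1:**
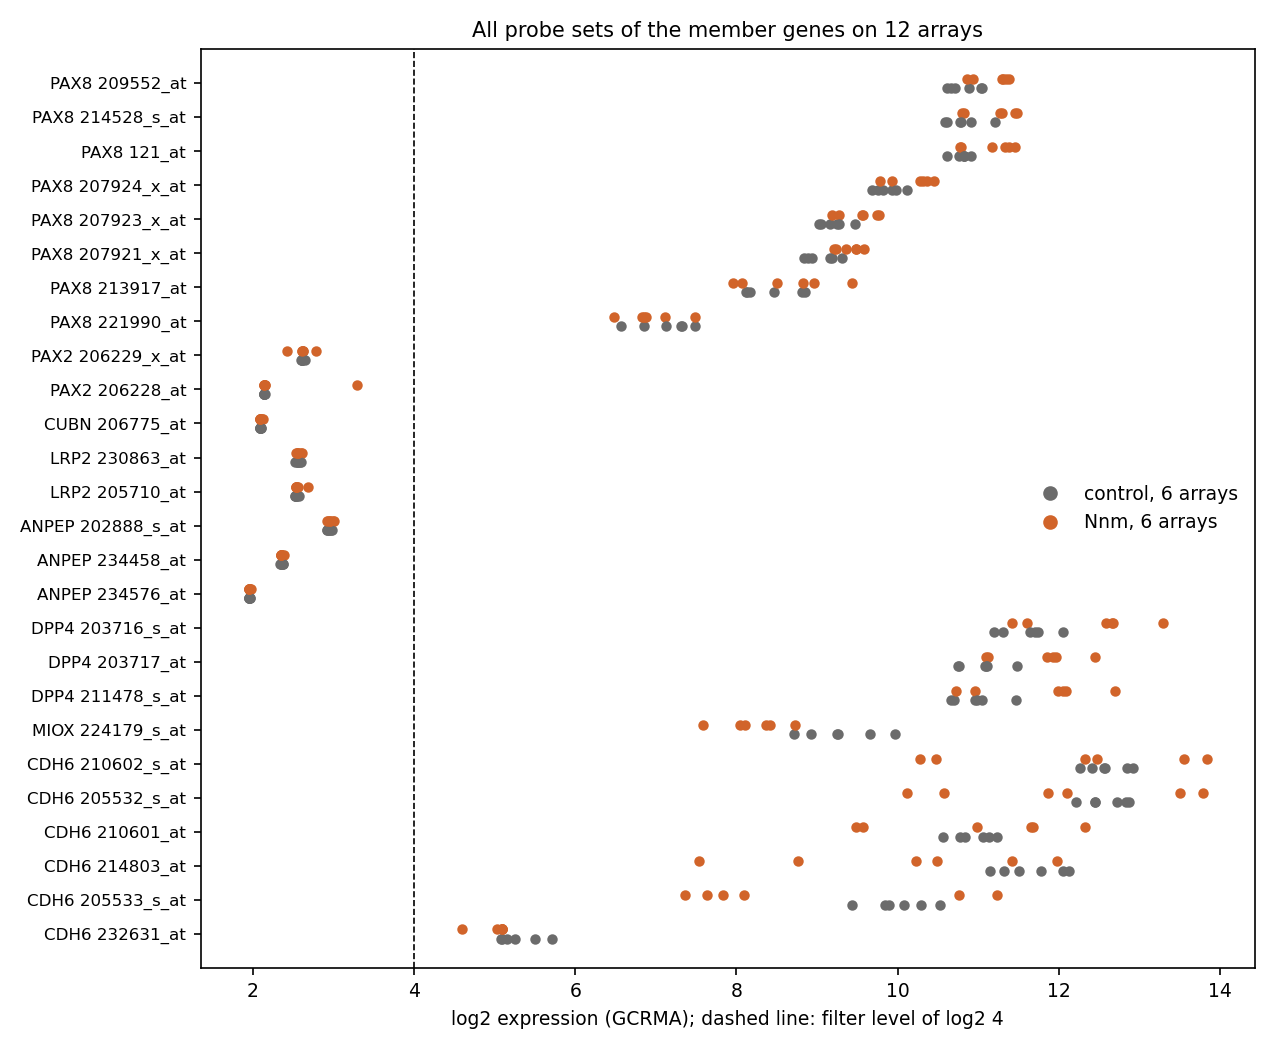
Log2 values of all 26 probe sets of the 8 measured genes on 12 arrays, with control arrays in grey, Nnm arrays in orange and the filter level of log2 4 as a dashed line. Every set of PAX2, CUBN, LRP2 and ANPEP lies left of the line on all arrays, and every set of PAX8, DPP4, MIOX and CDH6 lies right of it.

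**Figure D2:**
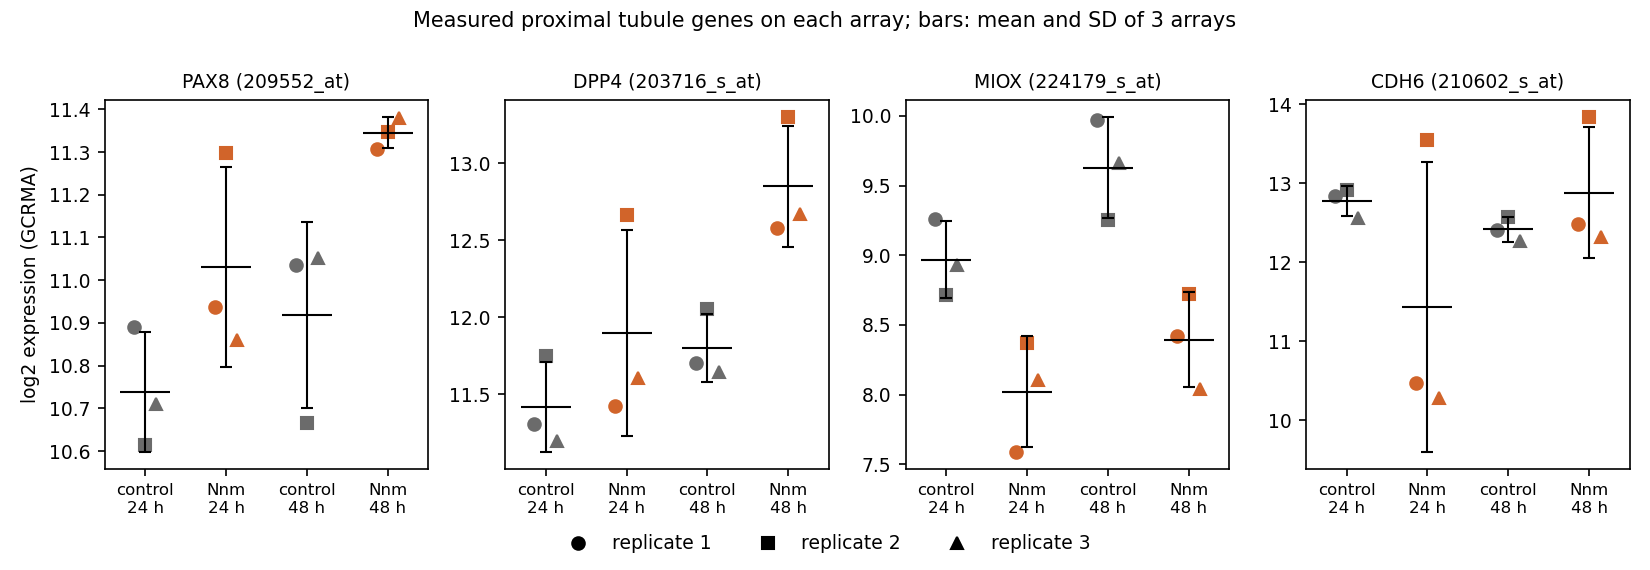
Log2 value of the leading probe set of PAX8, DPP4, MIOX and CDH6 on each array, with the mean and SD of the 3 arrays of each group as bars and the replicate number as the marker shape. MIOX is lower in every Nnm array than in every control array of its time. Nnm replicate 2 (square) stands above replicates 1 and 3 for DPP4, MIOX and CDH6 at both times and for PAX8 at 24 h. Each panel has its own axis.

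MIOX was the only one of the 4 tested genes that passed the test by its leading probe set, and it was lower with Nnm at both times. At 24 h control cells read 9.26, 8.71 and 8.93 (replicates 1 to 3) and Nnm cells 7.59, 8.37 and 8.10. At 48 h control cells read 9.97, 9.25 and 9.66 and Nnm cells 8.42, 8.72 and 8.04. At both times each Nnm array lay under each control array, and within Nnm the replicate nearest to the controls was replicate 2. Groups did not overlap for 39.6% of all tested genes at 24 h and 37.6% at 48 h.

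The group means were 8.97 ± 0.28 (SD, n = 3) in control and 8.02 ± 0.40 in Nnm cells at 24 h, and 9.63 ± 0.36 and 8.39 ± 0.34 at 48 h. MIOX fell by 0.94 on the log2 scale at 24 h (SE 0.27, limma adjusted p = 0.0413, 1.92-fold lower). It fell by 1.23 at 48 h (SE 0.27, limma adjusted p = 0.022, 2.35-fold lower). The difference between both effects did not pass the test, with a value of -0.29 (SE 0.38, limma adjusted p = 0.901). MIOX has 1 probe set, so no second set bears on it.

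Both MIOX calls were close to the threshold of 0.05. Over 23 other settings the 24 h change ranged from -1.12 to -0.73 and was called in 13, and the 48 h change ranged from -1.46 to -1.06 and was called in 16. With the replicate number as a block within each time, the adjusted p was 0.0808 at 24 h and 0.0554 at 48 h, and with the block over all arrays it was 0.0396 and 0.0212. Leaving out 1 array at a time ended the 24 h call in 7 of 12 cases (adjusted p 0.0525 to 0.162). These were each control array of 24 h, Nnm replicates 1 and 3 of 24 h, control replicate 3 of 48 h and Nnm replicate 1 of 48 h. It ended the 48 h call in 4 cases (adjusted p 0.0755 to 0.0914), those without control replicate 1 or 3 or Nnm replicate 1 or 3 of 48 h.

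DPP4, which removes dipeptides from peptide hormones and chemokines, had higher means in Nnm cells, but its leading probe set was called at neither time. At 48 h the groups did not overlap, as for 37.6% of all tested genes. On the leading probe set control cells read 11.31, 11.75 and 11.20 at 24 h, and Nnm cells 11.43, 12.66 and 11.61. At 48 h control cells read 11.70, 12.06 and 11.65 and Nnm cells 12.58, 13.30 and 12.67. Replicate 2 was the highest array of its group in each of the 4 groups, in control as well as Nnm cells, and the 24 h groups overlapped.

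The 48 h means were 11.80 ± 0.22 in control and 12.85 ± 0.39 in Nnm cells. Their difference of 1.05 (SE 0.32), a 2.07-fold ratio, missed the threshold on the leading probe set (limma adjusted p = 0.0621). With the replicate number as a block it passed, at adjusted p = 0.00957 over all arrays and 0.0332 within each time. Of 12 fits with 1 array left out it passed only without Nnm replicate 2 of 24 h, at limma adjusted p = 0.0159. That array holds no 48 h value and was singled out for where it lies, so such a p does not test the gene. The other 2 DPP4 probe sets rose at 48 h, by 0.88 (limma adjusted p = 0.0415) and 1.11 (limma adjusted p = 0.048). Each of these 2 calls was lost in 10 of 12 cases with 1 array left out (adjusted p 0.051 to 0.124 and 0.0601 to 0.137), and stayed without Nnm replicate 1 or 2 of 24 h. All 3 sets had groups that did not overlap at 48 h, as did 34.8% of all tested probe sets. The 3 sets read 1 gene on the same arrays, so they are not separate evidence.

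At 24 h the DPP4 difference was 0.48 on the leading probe set (SE 0.32, limma adjusted p = 0.305) and between 0.45 and 0.49 over its 3 sets. None was called by limma, and 0 of 3 had an unadjusted p under 0.05.

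PAX8 had the most probe sets of these genes, 8, and all of them passed the filter. On the leading set control cells read 10.89, 10.61 and 10.71 at 24 h and Nnm cells 10.94, 11.30 and 10.86. At 48 h control cells read 11.04, 10.67 and 11.05 and Nnm cells 11.31, 11.35 and 11.38. The 48 h groups did not overlap, as for 37.6% of all tested genes. The Nnm arrays lay within a narrow band, with means of 10.92 ± 0.22 in control and 11.35 ± 0.04 in Nnm cells.

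The PAX8 difference was 0.43 at 48 h (SE 0.16, limma adjusted p = 0.0987) and 0.29 at 24 h (SE 0.16, limma adjusted p = 0.203). Neither passed the test. Of 12 fits with 1 array left out, the 48 h difference passed only without Nnm replicate 2 of 24 h, at limma adjusted p = 0.0478. That fit kept all 48 h values and called 4607 probe sets at 48 h, against 2323 with all arrays. Since the array was singled out for where it lies, such a p does not test the gene. At 48 h 7 of the 8 sets were above 0 and 6 had groups that did not overlap, beside 34.8% of all tested probe sets. The 8 sets read 1 gene on the same arrays, so they are not separate evidence. None of the 8 was called by limma, and 5 had an unadjusted p under 0.05, as did 6988 of all 22829 tested probe sets. The set that differed in direction stood at -0.36 (limma adjusted p = 0.376), and the range over the 8 sets was -0.36 to 0.54. At 24 h all 8 differences were above 0, from 0.02 to 0.33, with 0 called by limma and 0 at an unadjusted p under 0.05.

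**Figure D3:**
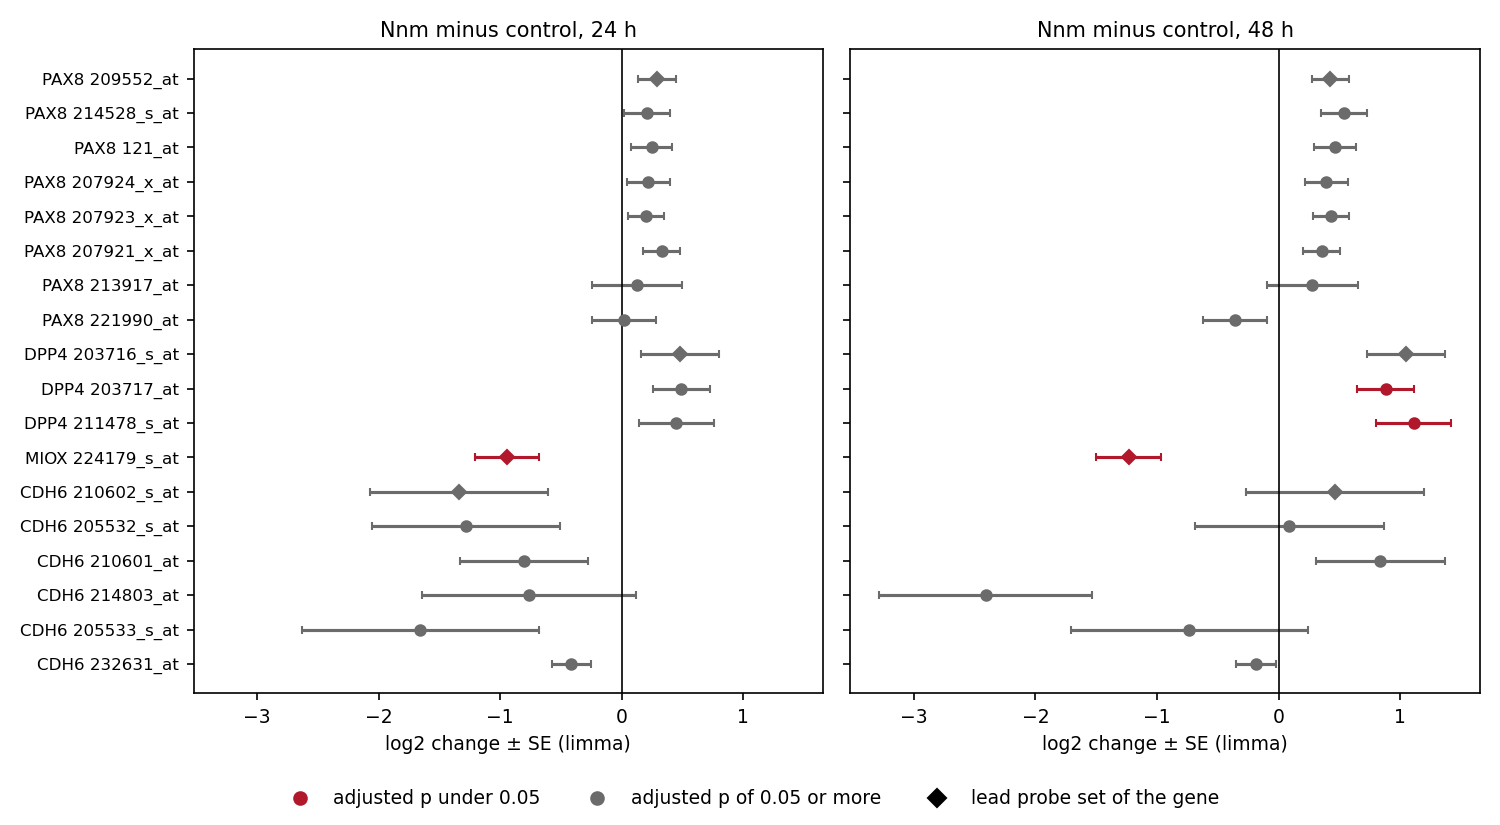
Difference between the Nnm and control means, in log2, for each of the 18 tested probe sets of PAX8, DPP4, MIOX and CDH6 at 24 h and 48 h, with the standard error from limma as bars. The 3 DPP4 sets agree at 48 h between 0.88 and 1.11, whereas the 6 CDH6 sets spread from -2.41 to 0.84.

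CDH6 varied more among Nnm arrays than between groups, and no difference passed the test on any of its 6 sets (0 called by limma at each time, 1 at an unadjusted p under 0.05). On the leading set the control arrays were 12.84, 12.92 and 12.56 at 24 h and 12.41, 12.58 and 12.26 at 48 h. The Nnm arrays were 10.47, 13.55 and 10.28 at 24 h. At 48 h they were 12.48, 13.84 and 12.33. At 24 h replicates 1 and 3 lay under all control arrays and replicate 2 above them, and at 48 h replicate 2 alone stood above all controls.

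The CDH6 differences on the leading set were -1.34 at 24 h (SE 0.73, limma adjusted p = 0.214) and 0.47 at 48 h (SE 0.73, limma adjusted p = 0.704). Without both Nnm arrays numbered 2 they were -2.40 and -0.013. Without Nnm replicate 2 of 24 h alone, the 24 h difference passed at adjusted p = 0.0016. Since that array was singled out for where it lies, such a p describes the remaining arrays and does not test the gene. The difference between both effects was 1.81 (limma adjusted p = 0.783), and 2.87 without Nnm replicate 2 of 24 h (adjusted p = 0.021).

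At 24 h all 6 CDH6 probe sets were below 0, from -1.66 to -0.41. The groups of 1 set did not overlap, beside 37.2% of all tested probe sets. At 48 h 3 were above 0 and 3 below. The set with the lowest 48 h difference read 12.13, 12.06 and 11.32 in control and 7.54, 11.97 and 8.77 in Nnm cells at 48 h, a difference of -2.41 (limma adjusted p = 0.0979). The leading set, given above, was at or above its control mean in 2 of these 3 Nnm arrays. This pair was picked after its values were seen. The difference of that set minus the leading set was -0.27, -0.52 and -0.94 in control arrays at 48 h and -4.94, -1.87 and -3.56 in Nnm arrays. The group means were -0.58 ± 0.34 and -3.45 ± 1.54. An exact two-sided permutation test gave p = 0.1, the smallest that 3 arrays against 3 allow. The set was chosen for its lowest 48 h difference on these arrays, so this p does not test the pair.

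At 24 h the same difference was -1.06, -1.41 and -1.42 in control arrays and 0.02, -2.13 and -0.04 in Nnm arrays, and the groups overlapped (exact two-sided permutation test, p = 0.4). A symbol cannot say which transcript each set reads, so a level for CDH6 as a whole at 48 h with Nnm rests on the set chosen.

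**Figure D4:**
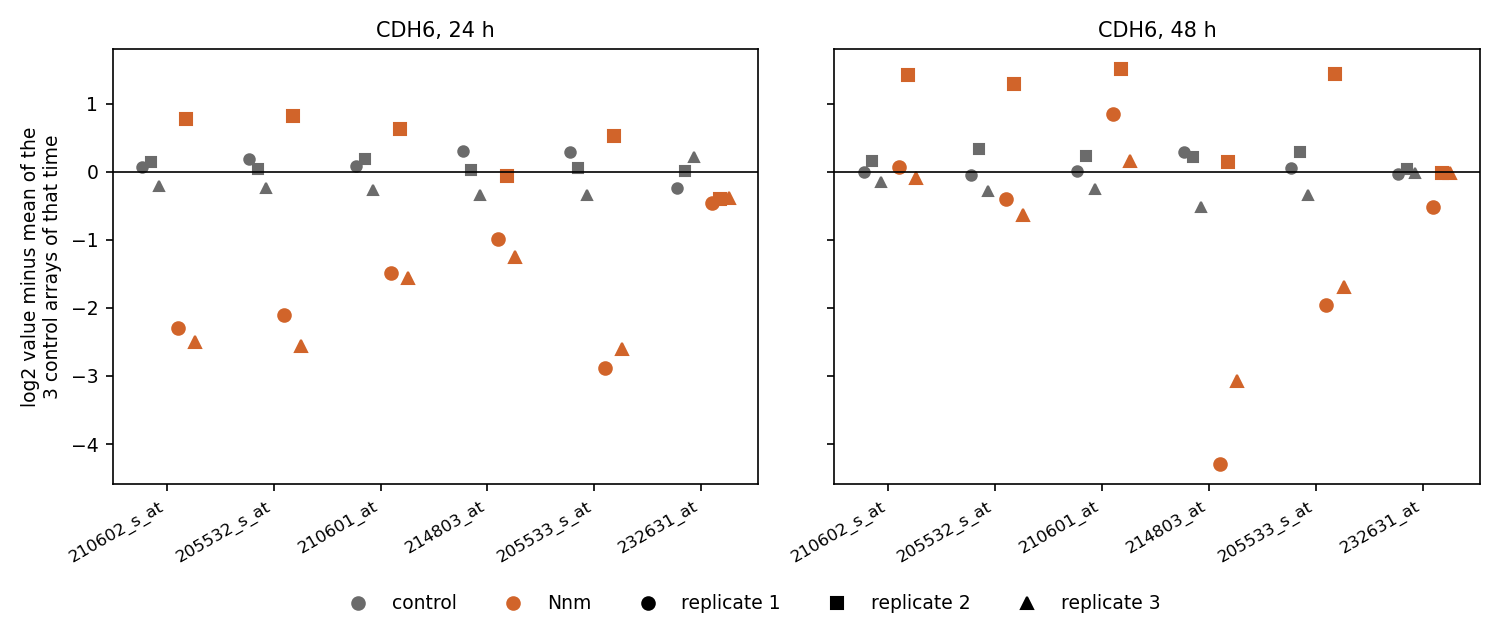
Log2 value of each of the 6 CDH6 probe sets minus the mean of its 3 control arrays, at 24 h and 48 h, with control arrays in grey, Nnm arrays in orange and the replicate number as the marker shape. At 48 h the leading set, leftmost, stays near 0 in Nnm replicates 1 and 3, while the fourth set from the left falls to 7.54 and 8.77 from a control range of 11.32 to 12.13.

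By gene, 1 of the 4 tested genes was called lower and none higher by limma at each time, against 16.5% of all 10963 tested genes called either way at 24 h (8.21% lower) and 10.8% at 48 h (4.27% lower). The called gene was MIOX both times, and 2.33% of all tested genes were called lower at both. By probe set, 1 of 18 was called at 24 h and 3 of 18 at 48 h, against 14.7% and 10.2% of all 22829. Groups did not overlap for 1 of the 4 genes at 24 h and 3 at 48 h, against 39.6% and 37.6% of all tested genes, and over all probe sets the shares were 37.2% and 34.8%. The replicate block over all arrays raised the share of probe sets called to 29.3% and 22.1%, and leaving out both Nnm arrays numbered 2 raised it to 47.0% and 42.1%. Without these arrays MIOX and CDH6 were called lower at 24 h, and at 48 h MIOX was called lower and PAX8 and DPP4 higher. Counts over 4 genes are too few to be set apart from these shares. The median difference of the 4 genes was -0.33 at 24 h and 0.45 at 48 h, beside -0.005 and 0.02 over all tested genes.

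Time in culture alone moved none of these genes past the test. In control cells at 48 h against 24 h, MIOX differed by 0.66 (limma adjusted p = 0.582), DPP4 by 0.38, PAX8 by 0.18 and CDH6 by -0.36. Of all probe sets 0.0% were called by limma in this comparison, with 1836 at an unadjusted p under 0.05, and 0.0% for the difference between the Nnm effects, with 1418.

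The 4 genes did not share 1 pattern over the arrays. Pearson's r over the 12 arrays, given as a description, was 0.77 between PAX8 and DPP4, 0.53 between DPP4 and CDH6 and 0.42 between MIOX and CDH6. It was -0.24 between PAX8 and MIOX and -0.23 between DPP4 and MIOX. These arrays share treatment and replicate number. The genes closest to MIOX were GPR143 (r = 0.97) and SYNGR2 (0.95), and those closest to CDH6 were HDDC3 (0.98) and the transcription factor SOX4 (0.98). DPP4 was closest to ELOA-AS1 (0.96) and to TEAD1 (0.95), a factor of the Hippo pathway. PAX8 was closest to the chemokine CCL28 (0.91) and to FNDC11 (0.90).

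Other genes of the tubule were taken from 7 lists with 85 genes, of which 74 were named in the annotation and 40 were tested. Of these 40, 1 was called higher and 1 lower by limma at each time, with 10 at 24 h and 13 at 48 h at an unadjusted p under 0.05. Over all 10963 tested genes, 4211 had such a p at 24 h and 3527 at 48 h, and limma called 16.5% and 10.8%. These shares apply to each list and marker count below that comes from all 12 arrays. The median difference was -0.06 at 24 h and 0.10 at 48 h. LHX1, SIX2 and PCK1 are among the 40 and passed the filter at least partly through Nnm arrays, so their part in these numbers is set by the filter. Beside each list's counts stand those without both Nnm arrays numbered 2, where 47.0% of all probe sets were called at 24 h and 42.1% at 48 h. Since these arrays were singled out for where they lie, such counts describe the remaining arrays.

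Among the endocytic partners of megalin and cubilin, all 5 named genes were tested and limma called none at either time (1 and 4 at an unadjusted p under 0.05), with medians of -0.10 and -0.45. Without both Nnm arrays numbered 2, 1 was called higher and 1 lower at 24 h and 1 higher and 4 lower at 48 h. MYO6, the motor that carries endocytic vesicles inward, averaged 8.43 ± 0.20 in control and 9.23 ± 0.22 in Nnm cells at 24 h. The groups did not overlap there, as for 39.6% of all tested genes. The difference of 0.80 had a limma adjusted p of 0.0619. With the replicate block over all arrays this p was 0.0218, and with the block within each time 0.0542. At 48 h the difference was 0.79 (0.0771, and 0.0253 and 0.059 with these blocks). The adaptor DAB2 stood at -0.64 (0.238) and -1.07 (0.0845). All 5 passed the filter in cells where both receptors were under it.

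Of the kidney transcription factors 6 of 9 named genes were tested, with medians of 0.94 and 0.51. HNF4G, a relative of HNF4A, rose at 24 h from 5.11 ± 0.13 to 6.57 ± 0.82, by 1.47 (limma adjusted p = 0.031), and stood at 0.71 at 48 h (0.225). Its Nnm arrays at 24 h read 7.07, 5.62 and 7.02, with replicate 2 the lowest but above all controls. The call was lost in 5 of 12 cases with 1 array left out (adjusted p 0.0695 to 0.128), those without any 24 h control array or without Nnm replicate 1 or 3 of 24 h. LHX1, a factor of nephron formation, stood at 1.40 (0.103) and 1.61 (0.0843), with adjusted p of 0.0498 and 0.0388 with the block over all arrays and 0.0857 and 0.0756 with the block within each time. LHX1 passed the filter partly through its Nnm arrays, as did SIX2. Their part in the median and in any count called higher is therefore set by the filter. For the same reason the LHX1 differences and p-values are given as description only. Without both Nnm arrays numbered 2, 4 of the 6 were called higher and 1 lower at 24 h, and 3 higher and 0 lower at 48 h.

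The brush border list held 13 named genes of which 5 were tested, and 15 transporters of which 2 were. Limma called none of either at any time (0 of 5 at an unadjusted p under 0.05 at both times, and 0 and 1 of 2). The median was -0.05 and -0.35 for the brush border and -0.82 and -1.22 for the transporters. Without both Nnm arrays numbered 2, 1 brush border gene was called higher and 1 lower at 24 h, and 1 lower at 48 h. Both tested transporters were called lower at both times there, with medians of -1.46 and -1.99. EZR, which ties microvilli to actin, stood at -0.15 and -0.35, and EPS8, an actin cap of microvilli, at -0.05 and -0.38. SLC4A4, the basolateral sodium bicarbonate cotransporter, read 12.40, 12.77 and 11.89 in control and 9.66, 12.06 and 9.87 in Nnm cells at 48 h. Its difference was -1.82 (limma adjusted p = 0.0888), and the adjusted p was 0.0159 with the replicate block over all arrays and 0.048 with the block within each time. SLC3A1, the cystine transporter subunit, stood at -0.87 (0.414) and -0.61 (0.602).

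Among genes of tubule metabolism 6 of 13 named were tested, with medians of -0.20 and 0.26. PCK1, 1 of these 6, passed the filter only through Nnm arrays. Its part in the medians and in any count called higher is therefore set by the filter. With both Nnm arrays numbered 2 left out, 1 was called higher and 1 lower at each time. GATM, the first enzyme of creatine synthesis, fell at 24 h from 8.13 ± 0.15 to 7.35 ± 0.28, by 0.78 (limma adjusted p = 0.0272, with 0.0225 with the block over all arrays and 0.0531 with the block within each time). The GATM call was lost without control or Nnm replicate 1 or 3 of 24 h (adjusted p 0.0873 to 0.115). It stood at -0.53 at 48 h (0.0899). GPX3, the glutathione peroxidase secreted by the tubule, fell at 48 h from 13.53 ± 0.22 to 12.80 ± 0.28, by 0.73 (limma adjusted p = 0.0496, with 0.0157 and 0.0501 with these blocks). The call was lost in 10 of 12 cases with 1 array left out (adjusted p 0.0554 to 0.172), and stayed without either Nnm replicate 2. At 24 h it stood at -0.21.

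Of the cadherins and catenins 8 of 9 named genes were tested, with medians of -0.06 and -0.02. In the fit that leaves out both Nnm arrays numbered 2, 1 was called lower at 24 h, and 1 higher and 1 lower at 48 h. CDH2, N-cadherin, a cadherin of proximal tubule cells, rose at 48 h from 9.58 ± 0.26 to 10.33 ± 0.37, by 0.75 (limma adjusted p = 0.0483), and stood at 0.46 at 24 h (0.142). The call was lost in 10 of 12 cases with 1 array left out (adjusted p 0.0602 to 0.177), and stayed without either Nnm replicate 2. CDH3, P-cadherin, stood at -0.89 (0.0506) and -0.66 (0.131), with adjusted p of 0.0133 and 0.0299 with the block over all arrays and 0.039 and 0.0444 with the block within each time. Among 8 tested genes of dedifferentiation limma called none (3 and 1 at an unadjusted p under 0.05), with medians of -0.18 and 0.56. When both Nnm arrays numbered 2 were left out, 2 were called higher and 3 lower at 24 h, and 3 higher and 1 lower at 48 h. TWIST1 stood at 0.82 (0.101) and 0.92 (0.0872), with adjusted p of 0.0123 and 0.0097 with the block over all arrays and 0.0445 and 0.0354 with the block within each time. ZEB1 stood at 0.99 (0.0963, and 0.0425 and 0.0908 with these blocks) and 0.80 (0.186). Both are transcription factors of epithelial to mesenchymal transition. They were named for their lowest p, and the negative median of their list at 24 h went the other way. Adjusted p-values in parentheses here and above are from limma.

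Markers of other cell types were read for the same cells. All 5 general epithelial markers (KRT8, KRT18, KRT19, EPCAM and CDH1) were above the filter. Their mean log2 value per array lay between 11.38 and 11.65 in control and 11.02 and 11.13 in Nnm cells at 24 h, and between 11.17 and 11.67 and between 10.85 and 11.49 at 48 h. No immune marker of 3 named was above the filter, and 1 of 6 endothelial and 1 of 6 distal nephron markers were. Of 5 fibroblast markers 3 were, namely DCN, LUM and COL1A1, and of 4 podocyte markers 2, PODXL and SYNPO. The mean over the fibroblast list lay between 7.29 and 7.44 in control and 6.88 and 7.52 in Nnm cells at 24 h, and between 7.11 and 7.20 and between 7.07 and 7.22 at 48 h. Of all 12 tested markers limma called none at either time (2 and 3 at an unadjusted p under 0.05). Without both Nnm arrays numbered 2, 1 podocyte marker was called higher at 24 h, and 2 fibroblast and 2 epithelial markers were called lower. At 48 h 1 podocyte, 1 distal nephron, 1 endothelial and 2 epithelial markers were called higher there, and 1 fibroblast and 1 epithelial marker lower. At 24 h and 48 h PODXL stood at 0.19 and 0.71, SYNPO at 0.60 and 0.26, SCNN1A, a sodium channel subunit of the distal nephron, at 0.05 and 0.63, and the endothelial PECAM1 at 0.17 and 0.68. COL1A1 stood at -0.80 and -0.55 and LUM at -0.07 and 0.31. The epithelial CDH1 stood at -0.43 and -0.87 and KRT18 at -0.65 and 0.17. The part of these markers in the results above was not tested. Of the 8 measured identity genes, 4 were above the filter level. Over the whole array, 10963 of 19775 genes with a probe set of their own passed the filter. The count of 4 thus does not set the identity genes apart.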

How the data were processed

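Total RNA from HK-2 cells was hybridised as biotinylated cRNA to 12 Affymetrix arrays. The deposited log2 values were made by the authors with GCRMA (version not given), as the submitters' processing notes state. This method corrects background by probe sequence and makes the arrays' distributions alike (medians 2.91 to 2.98), so a shift shared by most genes would not show. The number of arrays limits the precision.

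Of 54675 probe sets, 62 controls were left out and 22829 with log2 above 4 on at least 3 arrays were tested. The annotation named 1 gene for 41097, several for 1801 and none for 11777. Symbols were updated through RefSeq on GRCh38.p14, for names only. All arrays entered 1 four-group fit in limma 3.58.1 (R 4.3.3, 8 residual degrees of freedom). A call is a Benjamini-Hochberg adjusted p under 0.05 over all tested probe sets. The fit was tested on simulated data. The genes and lists were chosen with earlier results of these data known.

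From each list, up to 4 called genes with the largest change were named, or, with under 2 called, the 2 of lowest p. For each tested gene, the 2 most correlated genes were named. SIX2, PCK1, the CDH6 pair and single arrays were picked after their values were seen.

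The pairing of samples by replicate number was checked on deviations from group means: in each of 18 same-number pairs of arrays the correlation exceeded 0.1 (0.162 to 0.669), and over 36 other pairs its median was -0.208. Deviations within a group cancel, so low values for the other pairs follow from positive same-number pairs and are no separate sign of pairing. The pairing used for the block comes from this check, made on the same data as the block fits, and not from the labels. Alternatives were other filters, normalizations, fits, blocks and left-out arrays.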

Additional observations from a re-analysis of the deposited data

How the results depend on the processing

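The deposited values carry no detection call, MIOX has a single probe set and groups of 3 arrays limit each test, so genes under the filter have no test and calls near the threshold move with 1 array. Each result was recomputed under up to 23 other settings, and causes of the shifts below were not tested. For the 4 tested genes, 324 of 360 recomputed values kept their direction and their side of the threshold, 17 lost a call, 15 gained one and 4 changed sign. For the genes named from the lists, 850 of 1008 did, with 42 calls lost, 101 gained and 15 changes of sign.

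The number of the 4 genes called at 24 h, 1, became 0 without a filter, 0 with the block within each time, 0 with only the 6 arrays of that time, 2 with array weights and 2 without both Nnm arrays numbered 2, and 0 to 2 when 1 array was left out. At 48 h, 1 became 0 without a filter, 0 with only the 6 arrays, 2 with the mean of a gene's probe sets, 2 with the replicate block over all arrays, 3 with array weights and 3 without both Nnm arrays numbered 2, and 0 to 3 when 1 array was left out. For the difference between the effects, 0 became 1 with array weights and 1 without those arrays (0 to 1).

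Of all probe sets, the 3366 called at 24 h became 848 without a filter, 2097 with gene means, 6700 with the replicate block over all arrays, 112 with only 6 arrays, 12093 with array weights and 10730 without both Nnm arrays numbered 2 (81 to 8683 with 1 array left out). The 2323 at 48 h became 842, 1408, 5046, 115, 11202 and 9605 in the same order (207 to 6117). The fit without a filter tests more probe sets, the filter at log2 6 fewer, and gene means give 1 row per gene. Their counts therefore do not compare as shares with the others. For the difference between the effects, 0 became 2 without a filter, 3899 with weights and 2556 without those arrays (0 to 1028). For control cells over time, 0 became 1 without a filter, 1 with a filter at log2 6, 2 with gene means, 12 with the replicate block, 94 with weights and 26 without those arrays (0 to 4). Beyond the values given in the results, the replicate block over all arrays gained calls of SYNPO, COL1A1 and CDH2 at 24 h and of PODXL and CDH1 at 48 h among the genes named, of which PODXL was also called with the block within each time, and it changed the call of no further member.

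Changes of sign were as follows. CDH6 at 48 h (0.47) became -0.32 with gene means, -0.014 with weights and -0.013 without both Nnm arrays numbered 2 (-0.013 to 0.74 with 1 array left out). At 24 h, EPS8 became 0.13 with weights and 0.094 without those arrays (-0.22 to 0.094), SCNN1A -0.25 and -0.25 (-0.25 to 0.26) and PECAM1 -0.30 and -0.40 (-0.40 to 0.48). With 1 array left out, LUM at 24 h ran from -0.18 to 0.066 and KRT18 at 48 h from -0.062 to 0.59.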

Other observations

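Some tubule genes outside the identity set differed among the Nnm arrays and are given as values chosen after they were seen. SLC2A2, the basolateral glucose transporter GLUT2 of the proximal tubule, was above log2 4 on 2 of 12 arrays. It read 5.34 in Nnm replicate 2 at 24 h and 6.13 in Nnm replicate 2 at 48 h, and between 2.48 and 3.58 on the others, so it was not tested. PCK1, an enzyme of gluconeogenesis, passed the filter only through Nnm arrays. It read 3.55, 5.03 and 4.83 in Nnm cells at 24 h and 3.29, 5.61 and 3.35 at 48 h, against 3.01 to 3.23 in control cells.

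Surface markers of tubule cells in repair also differed among the Nnm arrays. CD24 read 11.63, 14.64 and 12.52 with Nnm at 24 h, against 14.34, 14.43 and 14.37 in control cells, so that replicate 2 lay above the controls and replicates 1 and 3 under them. VCAM1 read 4.55, 8.91 and 5.47 with Nnm at 24 h, against 7.12, 7.27 and 7.64 in control cells. At 48 h VCAM1 was 8.04, 9.04 and 8.41 with Nnm, above the control arrays at 7.32, 7.71 and 7.57. None of these differences between groups was called by limma (adjusted p 0.134 for CD24 and 0.414 for VCAM1 at 24 h, 0.477 for VCAM1 at 48 h).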
